A study of Mus musculus with 5 samples.

Results

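The 8 genes described here encode the enzymes that carry the building of pyrimidine nucleotides from carbamoyl phosphate to UTP and CTP. They were picked by gene symbol for their place in the pathway: Cad, Dhodh, Umps, Cmpk1, Nme1, Nme2, Ctps and Ctps2, 8 of the 23337 genes in the deposited table, and all 8 passed the filter on low values. The RNA came from embryonic fibroblasts of 129Sv mice that carry the SV40 T antigen, a viral protein which inactivates p53 and the retinoblastoma protein and so immortalizes the cells. There were 2 libraries labelled KO (genotype SIRT3 -/-) and 3 libraries labelled WT, all from cells under normal conditions. The immortalization was shared by both groups. SIRT3 removes acetyl groups from proteins of the mitochondrial matrix, and the study's title names the making of nucleotides de novo as a weak point of cells without it.

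Pyrimidines are built as a ring first and joined to ribose afterwards. CAD, a single cytosolic protein with several enzyme activities, makes carbamoyl phosphate from glutamine, joins it to aspartate and closes the ring. DHODH, which sits in the inner mitochondrial membrane and passes electrons to ubiquinone, oxidizes the product to orotate, and UMPS adds the ribose phosphate from PRPP and gives UMP. Kinases then make UDP (CMPK1) and UTP (NME1 and NME2), and CTP synthase (CTPS and CTPS2) turns UTP into CTP.

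The KO-labelled libraries held 33473103 and 33579031 reads recovered from the deposited values, and those labelled WT between 37396488 and 41758681. The lowest of these, WT replicate 2, rests on a step between values that is close to 1. Whether libraries of 1 genotype came from separate cultures or lines is not labelled, so a p-value here measures library-to-library spread that may be technical. Sirt3 itself had normalized read counts of 200.4 and 216.8 in the KO-labelled libraries and of 169.7, 149.4 and 118.4 in those labelled WT. It was thus detected and higher under the label KO (log2 fold change 0.53, limma, adjusted p = 0.00445). That goes against the label unless the allele still makes RNA, so groups are named here by their labels only. Of 10 fibroblast marker genes tested, 2 were higher and 6 lower under the label KO (80% called, against 65.3% of all genes tested), and Pdgfra averaged 1255 ± 98.6 (SD, n = 2) normalized read counts there, against 20013 ± 229 (SD, n = 3) in those labelled WT. Their summed level was 569768 to 608474 in the KO-labelled libraries and 612837 to 628587 in those labelled WT, and of the collagen genes named, Col3a1 fell by 2.25 and Col1a2 was higher by 0.58 on the log2 scale. Summed markers of epithelium, endothelium, muscle and blood were at most 101.2 normalized read counts in a library, while those of neurons and glia were higher. The 6 epithelial markers summed to 35.2 to 36.7 in the KO-labelled libraries and 13.0 to 14.8 in those labelled WT, with Krt5 at 0 in all libraries. The 6 endothelial markers summed to 77.8 to 80.4 under KO and 26.7 to 37.0 under WT, with Tie1 at 0. The 5 muscle markers summed to 47.8 to 68.3 under KO and 8.33 to 14.1 under WT, with Myod1 at 0. The 7 blood and macrophage markers summed to 80.4 to 101.2 under KO and 77.2 to 87.9 under WT, with Cd3e at 0. The 6 neuron and glia markers summed to 2685 to 2762 under KO and 2156 to 2297 under WT, mostly from the microtubule genes Mtap2 (higher) and Tubb3 (lower), with Rbfox3 and Sox10 at 0. In bulk RNA, fewer cells of a type and less RNA per cell cannot be told apart. The part of these markers in the results below was not tested.

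Of the 8 enzyme genes, 4 were higher in the KO-labelled libraries (Cad, Dhodh, Nme1 and Cmpk1) and 0 were lower at an adjusted p under 0.05 (limma on log2 values of all 13062 genes tested, Benjamini-Hochberg, two-sided). The background was large: 65.3% of all genes tested were called, 32.6% higher and 32.6% lower. The 4 of 8 are to be read against that share, and no test of the list was made. The called differences were small, at most 1.29-fold, and the median log2 fold change of the 8 genes was 0.13, beside -0.0023 over all genes tested. The median size of the change was also 0.13 on the log2 scale, against 0.30 over all genes tested. At an unadjusted p under 0.05 (limma), 6 of the 8 enzyme genes were higher and 0 lower. The share of all genes at that threshold is not given here. On recovered reads, edgeR called 4 enzyme genes higher and 0 lower, beside 4108 and 3953 of all genes. Its 4 were Cad, Dhodh, Nme1 and Umps, without Cmpk1, so the set differs from that of limma. DESeq2 called 3 higher (Cad, Dhodh and Nme1) and 0 lower, beside 3374 and 3325 of all genes. The numbers of genes tested in these fits are not given here, so no shares are formed. For 6 of the 8 genes the KO and WT libraries were fully apart, against 75.4% of all genes tested. KO lay above WT for 5 of them, against 37.8% of all genes, and below for 1, against 37.6%.

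**Figure D1:**
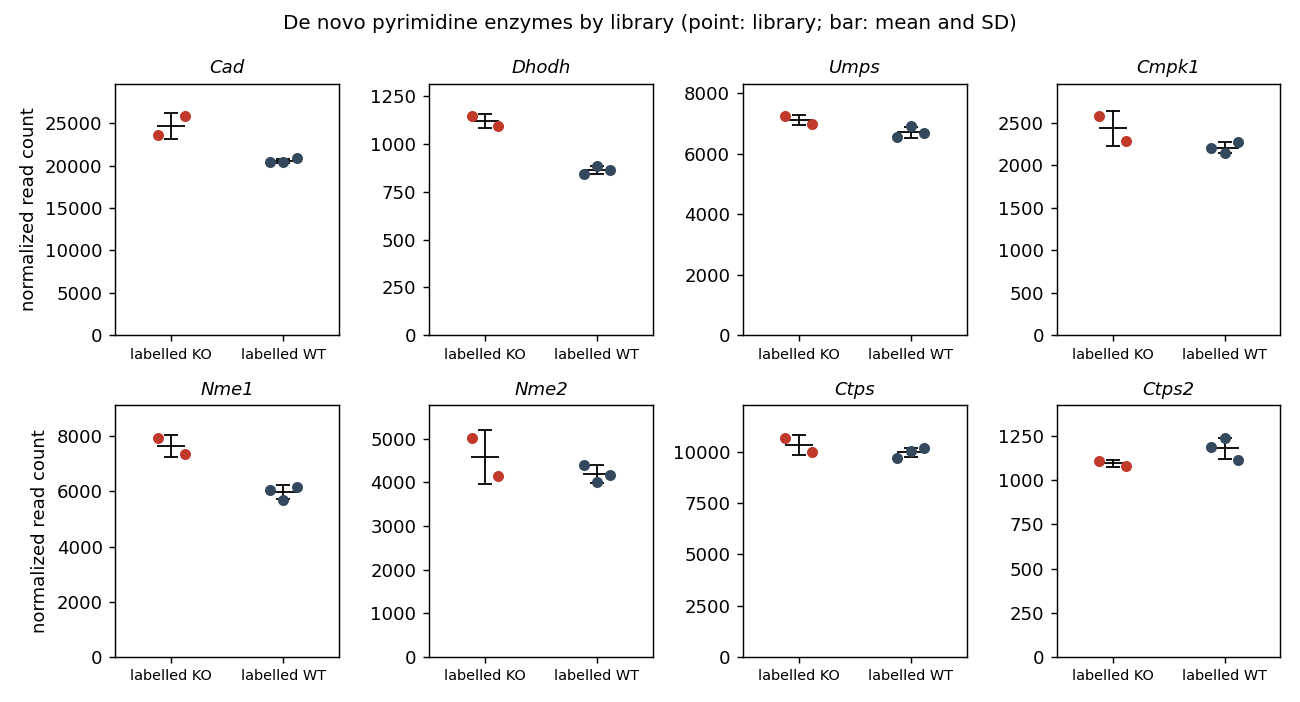
Normalized read count (vertical axes, each from 0) of the 8 enzyme genes in the 2 libraries labelled KO and the 3 labelled WT. Points are libraries, and bars are the mean with its SD. The libraries do not overlap for Cad, Dhodh, Umps, Cmpk1 and Nme1 (KO above WT) or Ctps2 (KO below WT), and they overlap for Nme2 and Ctps.

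Cad, for the enzyme that commits glutamine and aspartate to the pathway, was among the clearest of these differences. The gene occupies chr5:31054620-31078479 (GRCm38.p6, the assembly of mm10). It had 23598 and 25791 normalized read counts in the KO-labelled libraries, against 20396, 20431 and 20855 in those labelled WT. Both KO libraries lay above every WT library, and the 3 WT libraries were nearly level. The log2 fold change was 0.26 (standard error 0.040, limma, adjusted p = 6.52e-06), or between 1.13-fold and 1.27-fold by its 95% interval. Leaving out each library in turn gave log2 values from 0.20 to 0.33. The call held in each of the 17 alternatives tried, not all of which were separate. Adjusted p ran from 5.86e-07 to 0.000772 in the refits (limma, edgeR or DESeq2) and was 1.55e-10 in the authors' deposited table.

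Dhodh, for the mitochondrial step, showed the largest fold change of the 8 in the main fit, close to that of Nme1 (log2 0.37 and 0.35). Their order is not resolved: without WT replicate 1 Nme1 was the larger (0.365 against 0.353). It lies on chromosome 8 from 109593244 to 109608699. It had 1145 and 1095 normalized read counts in the KO-labelled libraries, against 842.3, 887.3 and 865.9 in those labelled WT. The gap between the labels was wider than the range within either. Dhodh averaged 1120 ± 35.3 under KO (SD, n = 2) against 865.2 ± 22.5 under WT (SD, n = 3), a 1.29-fold difference (log2 0.37, standard error 0.062, limma adjusted p = 2.18e-05). Its neighbours moved the same way: of 118 genes tested within 5 Mb, 64 were higher and 18 lower in the KO-labelled libraries, with a median log2 fold change of 0.23. With that median removed from each gene, Dhodh was at 0.15 and missed the threshold (limma, adjusted p = 0.0548), while the call held in the other 16 alternatives. Within 1 Mb, 2 of 13 neighbours had a larger fold change than Dhodh. Here and below, neighbour medians were removed as fixed numbers. P-values and intervals after removal therefore leave out the uncertainty of the medians. The part of the segment in the result was not tested further. Over all genes tested, 59.9% were called with the local median removed, 29.9% higher, and of the enzyme genes 2 were called higher (Cad and Nme1) and 1 lower (Ctps2).

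Umps, whose product joins orotate to ribose phosphate and removes the carboxyl group, had 7232 and 6995 normalized read counts in the KO-labelled libraries and 6548, 6915 and 6672 in those labelled WT. Both KO libraries were above the WT ones, but the closest pair lay within the spread of the WT libraries. The log2 fold change was 0.084 with a 95% interval from 0.0028 to 0.17 (limma, adjusted p = 0.0645). Umps passed without KO replicate 2 (limma, adjusted p = 0.0460) and without WT replicate 2 (0.0379), and with edgeR, which also had to leave out WT replicate 2 (adjusted p = 0.0313). It lies on chromosome 16 from 33954782 to 33967038, and 213 bases of its exons are overlapped on the opposite strand by the antisense gene Gm15829. Without a stated strand setting, reads from there cannot be told apart.

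Cmpk1, for the UMP and CMP kinase, was called, but the call rested on single libraries. Its normalized read counts were 2578 and 2294 in the KO-labelled libraries, against 2203, 2145 and 2280 in those labelled WT. KO replicate 1 stood well above the rest, while KO replicate 2 was just above the highest WT library. The fold change was 1.10 (log2 0.14, standard error 0.053, limma adjusted p = 0.0253). Without KO replicate 1 the log2 value was 0.055 (limma, adjusted p = 0.388). The call was also lost without WT replicate 1 (0.0751) or WT replicate 2 (0.1002), and it held in 8 of 17 alternatives. With the median of its 77 neighbours within 5 Mb removed it was at 0.053 (limma, adjusted p = 0.399).

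The nucleoside diphosphate kinase genes Nme1 and Nme2 are neighbours on chromosome 11, from 93958925 to 93968272 and from 93949814 to 93956256. Nme1 had 7928 and 7356 normalized read counts in the KO-labelled libraries, against 6063, 5696 and 6170 in those labelled WT, with a wide gap between the labels. Its fold change was 1.28 (log2 0.35, standard error 0.044, limma adjusted p = 3.38e-07), and it was called in all 17 alternatives. Nme2 had 5008 and 4146 normalized read counts under the label KO and 4396, 4009 and 4158 under the label WT. Here KO replicate 1 was the highest library and KO replicate 2 lay inside the WT range. The log2 fold change of Nme2 was 0.12 with a 95% interval from 0.0015 to 0.24 (limma, adjusted p = 0.0700). It was -0.014 without KO replicate 1 and 0.26 without KO replicate 2 (limma, adjusted p = 0.842 and 0.00244).

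The balance of both kinase genes within a library does not depend on how that library was scaled. On the RPKM scale the ratio of Nme1 to Nme2 was 1.05 and 1.18 in the KO-labelled libraries, and 0.919, 0.947 and 0.989 in those labelled WT. On this scale the ratio was above 1 in both KO libraries and below 1 in all 3 WT libraries. That crossing of 1 rests on the gene lengths behind RPKM. On normalized read counts the ratio was 1.58 and 1.77 under KO and 1.38, 1.42 and 1.48 under WT. The difference in the log2 ratio was 0.23 (exact permutation test, two-sided, p = 0.2, which is the smallest p that 2 against 3 libraries can give). It was 0.31 without KO replicate 1 and 0.15 without KO replicate 2. The median log2 fold change of the 113 genes tested within 5 Mb was -0.0030 for either gene. Within 1 Mb it was 0.17 for the 17 neighbours of Nme1, of which 4 had a larger log2 fold change than Nme1.

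Counting programs could in principle share reads between such similar genes, so the start of both coding sequences is shown here (GENCODE M21, GRCm38, bases 1 to 150 of each open reading frame, capitals marking bases that differ between the genes).
Nme1: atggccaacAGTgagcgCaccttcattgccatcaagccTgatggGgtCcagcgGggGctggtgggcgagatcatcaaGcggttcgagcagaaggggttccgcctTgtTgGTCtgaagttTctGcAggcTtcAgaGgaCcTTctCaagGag
Nme2: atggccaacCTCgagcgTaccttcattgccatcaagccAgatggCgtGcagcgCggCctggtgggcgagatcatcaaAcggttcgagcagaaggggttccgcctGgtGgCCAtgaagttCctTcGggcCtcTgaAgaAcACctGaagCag
In these 150 bases 26 differ. Over the whole coding sequence of 459 bases the genes are identical at 80.0% of positions, the longest identical run is 29 bases, and 0 of 410 windows of 50 bases are shared. The read-through gene Gm20390, annotated on the same strand, covers 12.5% of the exon bases of Nme1 and 48.9% of those of Nme2. How the authors' counting treated reads there is not given in the sources used here, so the levels of both genes are uncertain to that extent.

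CTP synthase is encoded by Ctps and Ctps2. Ctps (chromosome 4, 120539868 to 120570276) had 10665 and 9978 normalized read counts in the KO-labelled libraries, against 9719, 10035 and 10172 in those labelled WT. KO replicate 1 was the highest library, and KO replicate 2 lay inside the WT range. Its log2 fold change was 0.049 with a 95% interval from -0.033 to 0.13 (limma, adjusted p = 0.287), whose upper end is 1.09-fold, and none of the 17 alternatives called it. Without KO replicate 1 it was at 0.00072, and without KO replicate 2 at 0.097 on the log2 scale. Ctps2 (chromosome X, 162901268 to 163034541) had 1107 and 1082 normalized read counts under the label KO and 1186, 1238 and 1115 under the label WT. Both KO libraries were below the WT ones, the nearest by less than the WT spread. The log2 fold change was -0.11 with a 95% interval from -0.23 to 0.020 (limma, adjusted p = 0.130). The 31 genes tested within 5 Mb of Ctps2 had a median of 0.22, with 15 higher and 6 lower, and all 6 neighbours within 1 Mb had a higher log2 fold change than Ctps2. With the local median removed, Ctps2 was lower at -0.33 (limma, adjusted p = 0.000114). That median was taken as a fixed number, though the quartiles of the neighbours ran from -0.15 to 0.36. The p-value leaves out this uncertainty, and the call of Ctps2 rests on the removal. Ctps took 95.4% and 95.2% of the summed RPKM of the pair in the KO-labelled libraries and 94.6%, 94.6% and 95.2% in those labelled WT. The log2 ratio of Ctps to Ctps2 was 0.16 higher under the label KO (exact permutation test, two-sided, p = 0.2, again the smallest possible).

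**Figure D2:**
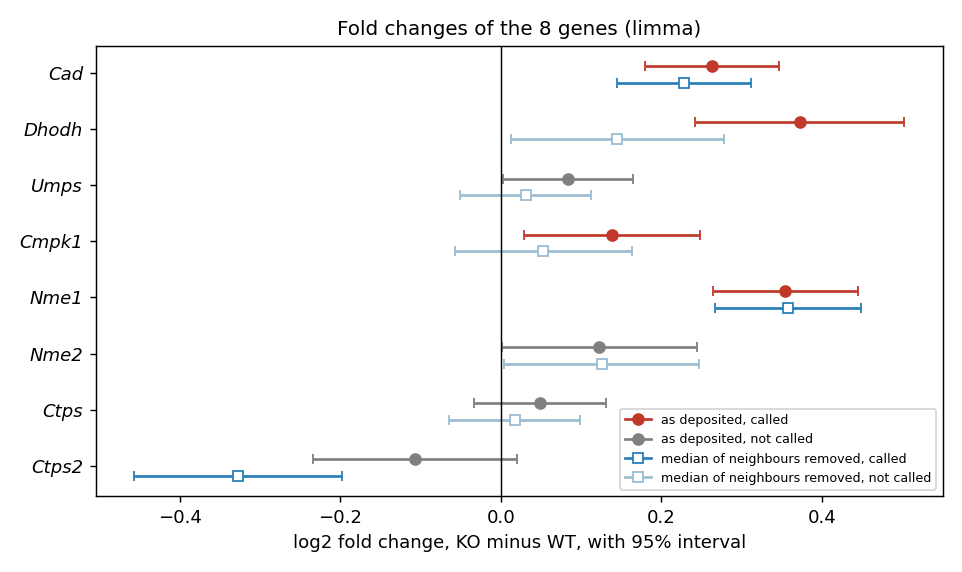
Log2 fold change (KO minus WT, horizontal axis) of the 8 genes with its 95% interval from limma, as deposited (circles) and after removing the median of the genes tested within 5 Mb (squares). Called points are in the darker colours. With the median removed, Cad (0.23) and Nme1 remain called, Dhodh is at 0.15, Cmpk1 at 0.053 and Ctps2 at -0.33. The intervals of the squares leave out the uncertainty of the removed median.

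**Figure D3:**
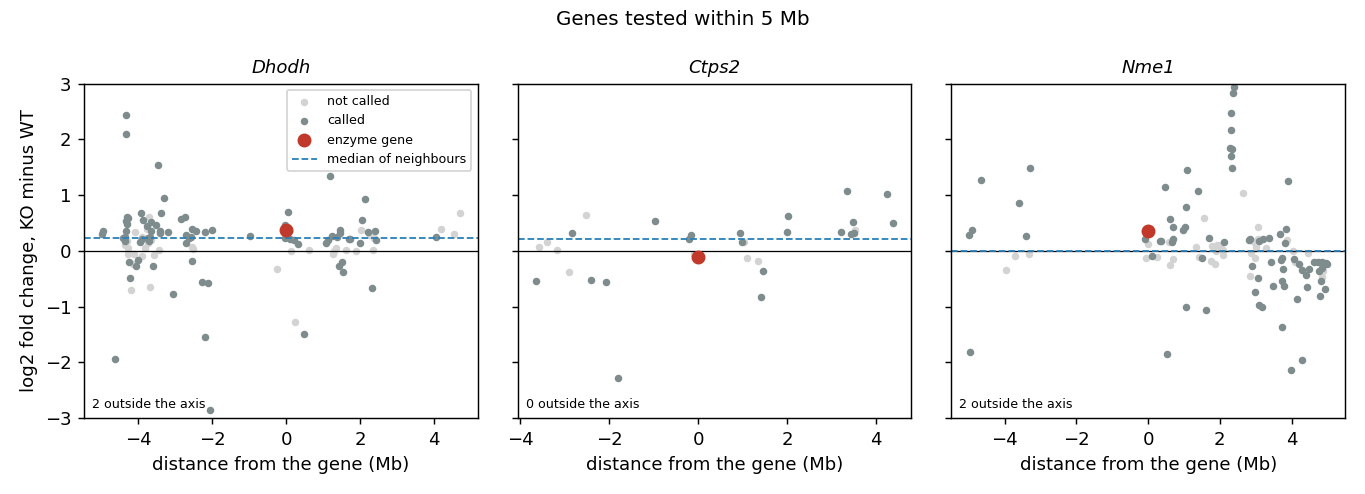
Log2 fold change of the genes tested within 5 Mb of Dhodh, Ctps2 and Nme1 against their distance in Mb. Red points are the enzyme genes and dashed lines the median of the neighbours, at 0.23, 0.22 and -0.0030. Outside the axis lie 2 genes near Dhodh and 2 near Nme1.

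Levels between genes were compared as RPKM, which divides reads by gene length. The order, taken as means over the 5 libraries, was Nme1, Nme2, Ctps, Cad, Umps, Cmpk1, Dhodh and Ctps2. Nme1 averaged 167 ± 10.3 RPKM (SD, n = 2) in the KO-labelled libraries and 131 ± 5.60 RPKM (SD, n = 3) in those labelled WT. Nme2 averaged 149.995 ± 21.3 RPKM under the label KO and 138 ± 6.57 RPKM under the label WT, so the order of both kinase genes is not resolved. Cad averaged 93.6 ± 5.03 RPKM under KO and 78.3 ± 1.01 RPKM under WT, below Ctps at 103 ± 5.77 and 99.8 ± 2.29 RPKM in the same order. Dhodh averaged 13.0 ± 0.530 RPKM under KO and 10.1 ± 0.252 RPKM under WT. Its level lay above 53.8% of the genes tested and that of Cad above 94.1%. Ctps2 was the lowest, at 5.06 ± 0.127 RPKM under KO and 5.47 ± 0.281 RPKM under WT. The lengths implied by the deposited RPKM values ran from 823 bases for Nme2 to 7106 for Cad, and 5835 for Ctps2, and the levels rest on them. The reads behind a value ran from 897 to 1040 for Dhodh and from 20653 to 23193 for Cad.

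**Figure D4:**
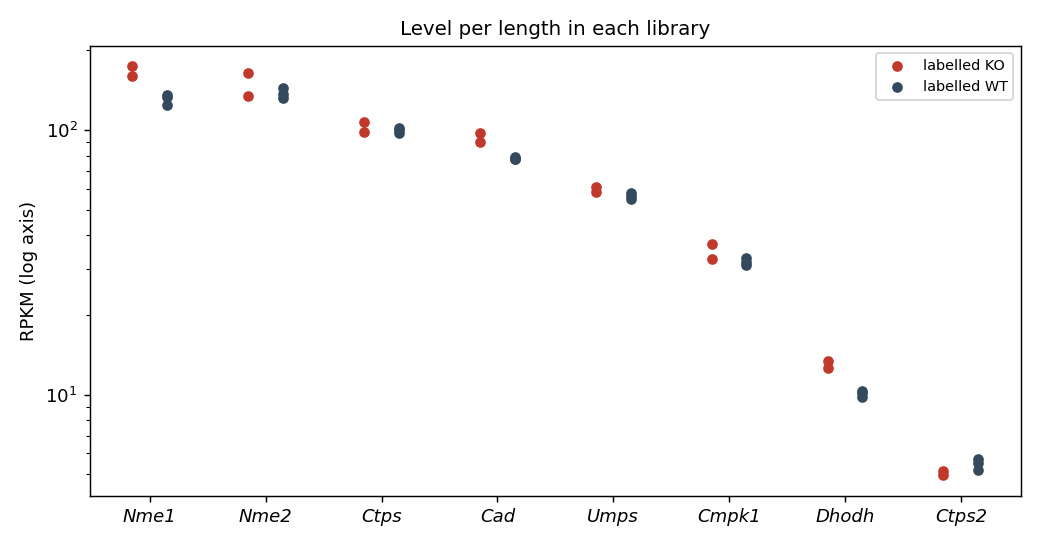
RPKM (log axis) of the 8 genes in each library, ordered by their mean over the 5 libraries. Points are libraries. The levels span from 174 RPKM for Nme1 in KO replicate 1 to 4.97 RPKM for Ctps2 in KO replicate 2.

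Promoter sequence was available in RefSeq (GRCm38.p6) for Cad, Nme1, Nme2, Cmpk1, Umps, Ctps and Ctps2. The 250 bases before the start that the promoter table uses are shown for the called genes Cad, Nme1 and Cmpk1 and, as a gene that was not called, Umps. For Cad that start, at position 31054780, is inside the gene's annotated span, which begins further upstream, so 160 of the 250 bases shown lie within the span. Capitals mark matches, on either strand, to the motifs searched.
Cad (chr5:31054530-31054779, plus strand): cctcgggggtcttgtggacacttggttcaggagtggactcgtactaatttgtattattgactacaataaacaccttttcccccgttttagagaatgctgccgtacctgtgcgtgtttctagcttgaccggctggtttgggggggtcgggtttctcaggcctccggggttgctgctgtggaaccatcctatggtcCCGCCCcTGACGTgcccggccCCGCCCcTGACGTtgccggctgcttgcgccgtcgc
Nme1 (chr11:93968273-93968522, minus strand): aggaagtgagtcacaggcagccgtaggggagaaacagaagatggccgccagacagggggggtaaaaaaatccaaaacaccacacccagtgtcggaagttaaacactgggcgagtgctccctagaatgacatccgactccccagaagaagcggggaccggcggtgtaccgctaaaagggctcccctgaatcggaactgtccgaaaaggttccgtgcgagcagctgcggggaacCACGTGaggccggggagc
Cmpk1 (chr4:114987229-114987478, minus strand): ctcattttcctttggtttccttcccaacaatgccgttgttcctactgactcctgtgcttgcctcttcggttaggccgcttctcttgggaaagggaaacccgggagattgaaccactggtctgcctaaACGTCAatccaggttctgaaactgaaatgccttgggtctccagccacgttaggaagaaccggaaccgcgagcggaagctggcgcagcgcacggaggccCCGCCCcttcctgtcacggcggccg
Umps (chr16:33967039-33967288, minus strand): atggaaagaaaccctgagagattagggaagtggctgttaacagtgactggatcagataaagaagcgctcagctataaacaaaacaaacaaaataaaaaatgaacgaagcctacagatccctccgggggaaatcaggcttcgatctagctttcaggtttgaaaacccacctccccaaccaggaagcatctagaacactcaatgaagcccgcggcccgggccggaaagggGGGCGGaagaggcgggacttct
The motifs were the E-box CACGTG, which MYC can bind, the GC box GGGCGG, the CCAAT box, TGACGT, the core of the cyclic AMP response element, and the NRF1 site. Nme1 held 1 E-box, beginning 18 bases before its start, and a window at its other annotated start held 1 too. Of that other window, 247 of the 250 bases lie inside the annotated span of Nme1. The second windows of Ctps and Nme2 and every window of Ctps2 lie inside their gene's span with all 250 bases. The E-box was in 6.02% of all promoter windows and in none of those of the other 6 genes. Only the 250 bases before each start were searched, so an E-box after the start of Cad or another gene would be missed. The motifs were chosen after the sequences were read. Cad held 2 GC boxes and 2 TGACGT motifs within 56 bases before the start at 31054780, and these motifs were in 32.7% and 6.47% of all windows. Ctps held the NRF1 site, found in 0.782% of windows. A match here is a description of letters and does not show binding.

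The rest of pyrimidine metabolism was described from lists of genes, whose counts are to be read against the 65.3% of all genes tested that were called, 32.6% in each direction. For salvage and uptake, which recover nucleosides, 6 of 12 tested genes rose and 3 fell under the label KO (75% called), with a median log2 fold change of 0.095. Dctd, for dCMP deaminase, was 1.74-fold higher, at 1943 ± 14.8 (SD, n = 2) under KO against 1118 ± 56.2 (SD, n = 3) under WT, and the nucleoside transporter gene Slc29a1 was 1.45-fold higher. Upp1, for uridine phosphorylase, fell by 1.25 on the log2 scale. In the list set up for breakdown 2 of 7 rose (the nucleotidase genes Nt5c2, 1.83-fold, and Nt5c3, 1.51-fold) and 2 fell, with a median of -0.18. Being listed does not show that a nucleotidase acts mainly on pyrimidines. Nt5c3l, a further nucleotidase gene, was one of the fallers, at -0.41. Dpyd, Dpys and Upb1, the route of uracil to its end products, were all below the filter.

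Other nucleotide kinases gave 5 higher and 4 lower of 11 tested (81.8% called, against 65.3% of all genes tested), with a median log2 fold change of -0.10. Of the adenylate kinase genes named, Ak4 was 3.79-fold and Ak3 1.69-fold higher under the label KO, and Ak1 was lower. Ak1 averaged 1064 ± 20.8 (SD, n = 2) under KO against 3881 ± 193 (SD, n = 3) under WT. Nme4 and Cmpk2, both for mitochondrial enzymes, are named after their values were seen, and they went opposite ways. Nme4 had 716.9 and 748.4 normalized read counts under KO and 455.2, 360.1 and 375.6 under WT, a 1.85-fold difference with no overlap (limma, adjusted p = 4.3e-08). Cmpk2, for a UMP and CMP kinase, was low, at 5.51 and 3.34 under KO and 16.8, 18.8 and 22.2 under WT (log2 fold change -1.92, limma, adjusted p = 0.000808).

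Genes listed for the supply of PRPP, aspartate and glutamine gave 6 higher and 4 lower of 11 (90.9% called, against 65.3% of all genes tested), with a median of 0.18. Got1, for the cytosolic aspartate aminotransferase, was 2.52-fold higher, at 3367 ± 47.2 (SD, n = 2) under KO against 1339 ± 74.5 (SD, n = 3) under WT. That enzyme can make or use aspartate, and its direction in these cells was not tested. Prps2, for PRPP synthesis, was 1.42-fold higher. Glul, for glutamine synthetase, fell, with a log2 fold change of -0.80. Ubiquinone synthesis, which provides the electron acceptor of DHODH, gave 3 higher and 5 lower of 13 (61.5% called), with a median of -0.056. Adck4 (Coq8b) and Coq10a fell by 0.90 and 0.72 and Coq4 by 0.51 on the log2 scale. Of 8 genes for other dehydrogenases that reduce ubiquinone, Gpd2 was higher by 0.26 on the log2 scale and the complex II gene Sdha was at -0.12, both called, and 6 did not pass.

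Users of UTP and CTP gave 6 higher and 3 lower of 10 (90% called, against 65.3% of all genes tested), with a median of 0.13. Cmas, which activates sialic acid with CTP, was 1.72-fold higher, while Pcyt1a, whose product makes CDP-choline, fell by 0.33 and Uap1l1 by 1.29 on the log2 scale. Kinases known to act on CAD and members of the MYC family gave 5 higher and 3 lower of 10 (80% called), with a median of 0.078. The MYC family gene Mycl1 was 4.31-fold and the protein kinase A gene Prkaca 1.25-fold higher, while the protein kinase C gene Prkca fell by 0.78 on the log2 scale. Myc, a known activator of Cad and named after its values were seen, had 3748 and 3910 normalized read counts under KO and 2979, 3101 and 3161 under WT (1.24-fold, limma, adjusted p = 2.02e-06). The part of Myc in the result for Cad was not tested.

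Nucleotide synthesis is known to go with growth, so proliferation markers are given beside these genes. Of 9 tested, 5 rose and 1 fell under the label KO (66.7% called, close to the 65.3% of all genes tested), with a median log2 fold change of 0.22. Mki67 and Ccna2 were 1.37-fold and 1.34-fold higher, and Top2a fell by 0.38. Their summed level was 131782 to 132499 in the KO-labelled libraries and 118411 to 121642 in those labelled WT. Their part in the results for Cad, Dhodh and Nme1 was not tested. By the distance between centred log2 profiles over the 5 libraries, the genes most like Dhodh were the cyclin gene Ccnb1 (0.0251), Cnbp (0.0255) and Zfml (0.0263), and those most like Cad were Pros1 (0.0240), Afap1 (0.0286) and Usp31 (0.0319). These profiles share the same 5 libraries, and each of the 6 genes was also higher under the label KO. That direction follows largely from picking the genes by likeness, so it is no separate result. Afap1 is also one of the chromosomal neighbours of Cad, 4.88 Mb away and within the 5 Mb window.

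**Figure D5:**
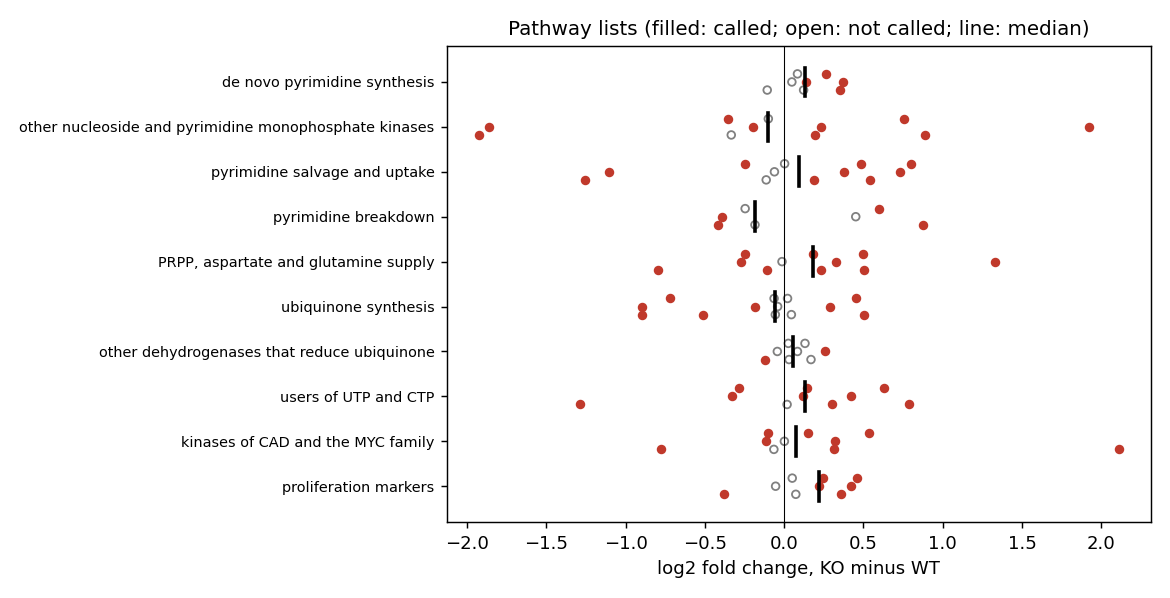
Log2 fold change (KO minus WT) of each gene tested in the pathway lists and the proliferation markers. Filled points are called, open points are not, and lines are medians. The 8 enzyme genes lie between -0.11 and 0.37, and the other nucleotide kinases between -1.92 and 1.92.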

How the data were processed

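The values analysed are of 2 kinds. The signal values, called normalized read counts, are counts that the authors scaled by library: 100% of values in every library were whole multiples of a step, to within 0.1 reads. The authors also deposited RPKM values, log2 fold changes, Wald scores and p-values, per the file headers. STAR, DESeq2 and mm10 are named in the submitters' processing notes. Neither counting program nor strand setting is given in the sources used here.

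Samples were grouped by title. For genes reaching 10 in at least 2 libraries, log2(value + 1) was fitted on genotype alone in limma 3.58.1 (R 4.3.3), using a trended prior. Fold changes on this scale understate those of low genes. edgeR 4.0.16 and DESeq2 1.42.0 used recovered whole reads of 4 libraries, without WT replicate 2, whose step (0.989) is too near 1 for the check of whole reads. edgeR called 4108 genes higher and 3953 lower. The tests were also run on simulated counts, with the same spread setting for every gene. Real genes differed in spread: under KO the SD was 13.3% of the mean for Nme2 and 1.60% for Ctps2. Nothing is concluded from that run. Positions came from RefSeq (GRCm38.p6, the assembly of mm10), and of 152 listed genes 9 matched by an older symbol and 1 not at all. The enzymes, lists and rules were chosen with earlier results of these data known, and the motifs after the sequences were read. Named from each other list were up to 3 called genes with the smallest adjusted p, and the 3 profiles nearest to Cad and Dhodh.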

Additional observations from a re-analysis of the deposited data

How the results depend on the processing

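The calls of Cad and Nme1 held in all 17 alternatives, and Ctps was called in none. The 17 were not all separate. Median-ratio scaling gave the main value again (Cad 0.263 in both), since the values were already scaled. The replicate block gave the value found without WT replicate 3 (Cad 0.273 in both). Removing the median of neighbouring genes left 2 enzyme genes called higher and 1 lower, with Dhodh at 0.15, Cmpk1 at 0.053 and Ctps2 at -0.33 on the log2 scale. Those calls treat each median as a fixed number. Cmpk1 also missed the threshold with no filter (0.14), on RPKM values (0.13), with edgeR and DESeq2, both without WT replicate 2 (0.12 each), and in the authors' deposited table (0.14). Umps passed with edgeR (0.11), as it did in limma without WT replicate 2. Leaving out 1 library gave 0.055 to 0.22 for Cmpk1, 0.060 to 0.11 for Umps and -0.014 to 0.26 for Nme2, 0.00072 to 0.097 for Ctps, -0.15 to -0.071 for Ctps2, 0.15 to 0.31 for the log2 ratio of Nme1 to Nme2, and 3 to 6 enzyme genes higher. Without KO replicate 1 or 2, 1 library labelled KO is left, assumed to vary like the others. In the lists, DESeq2 called 2 genes of PRPP, aspartate and glutamine supply and 3 of ubiquinone synthesis lower, and 3 of the CAD kinases and MYC family higher and 1 lower. Leaving out 1 library gave 1 to 2 lower in that family, and 1 to 2 higher and 0 to 1 lower for dehydrogenases that reduce ubiquinone. The causes were not tested. With the replicate number as a block, Cad was at 0.27, 4 enzyme genes were called, and the CAD kinases and MYC family had 1 gene lower. Between KO and WT libraries of the same number, the correlation of deviations from group means was small (-0.0098 for number 1 and -0.0050 for number 2). The deviations of the 2 KO libraries mirror each other, so these values are not separate. They describe the data and cannot settle whether the libraries were paired. The block gave 3958 genes higher and 3947 lower. The precision of each value rests on 2 libraries labelled KO and 3 labelled WT.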
